A study of Gallus gallus with 50 samples.

Results

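The comparison described here follows GFP-positive cranial cells of the chicken embryo from Hamburger-Hamilton stage 8 (HH8) to stage 10 (HH10). Its members are the 6 kept libraries with the group label NC_8 (3 libraries) or NC_10 (3 libraries), out of 42 libraries that the authors kept and 50 that were deposited. All embryos had been electroporated whole with ptk-TFAP2AE1-GFP, a reporter in which the E1 enhancer of TFAP2A drives GFP, and were grown outside the egg at 37 °C. The cranial part of about 20 heads was pooled for each sample, dissociated and sorted, so that a library is a pool of animals and not 1 animal. GFP-negative head cells, with the group labels WE_8 (3 libraries) and WE_10 (3 libraries), served to show which changes were shared with the rest of the head. By their titles, the 3 WE_8 libraries come from the same pools of heads as the 3 NC_8 libraries. Of the WE_10 libraries, replicates 2 and 4 share a pool with NC_10 replicates 1 and 4, while the partner of WE_10 replicate 3 was left out and NC_10 replicate 2 has no kept partner. A crest cell that did not take up the reporter, or did not express it, was sorted as GFP-negative. Both stages and both fractions carry the same reporter, and no library from embryos without it was analysed here.

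Neural crest cells arise at the border of the neural plate and come to lie in the dorsal neural tube as the tube closes. They then lose their epithelial contacts, leave the tube and migrate, and in the head they later form much of the facial skeleton, cranial ganglia and pigment cells. In the chick, cranial crest is premigratory in the neural folds around HH8 and is leaving the midbrain region around HH10. The stages are scored by morphology, and HH10 embryos are older than HH8 embryos in every tissue.

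The data give read counts per gene by Ensembl identifier, with no gene name, and none of the 24356 identifiers could be paired with a symbol. Marker genes of neural crest, neural tube, ectoderm, mesoderm or blood could therefore not be looked up. The cell type of the sorted fractions is known only from the labels, and pathway lists could not be counted. No sequence is shown for the same reason. Genes are described here by position, exon number, level and pattern over the stages, and 4 of them by identifier. In sorted bulk samples, a change in the share of a cell type and a change in RNA per cell cannot be told apart.

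The 6 GFP-positive libraries held 14426467 to 21736898 counted reads and 13108 to 13793 genes with 10 or more reads. Across genes, the 3 HH8 libraries correlated with each other at a Pearson r of 0.970 to 0.976. The 3 HH10 libraries correlated with each other at 0.934 to 0.954, and with the HH8 libraries at 0.928 to 0.959. The HH10 libraries therefore differed among themselves over a range that lay within that of their differences from HH8 by this measure, in which genes are not independent replicates. Flow cells named in the labels define 5 sequencing sets among the 12 libraries of both fractions (A to E). The 1 library of set D among them, WE_10 replicate 2, has 2 flow cells in its label. The HH8 libraries came from sets A, B and C, and the HH10 libraries from sets B, C and E. Reads from mitochondrial genes made up 7.22%, 5.86% and 4.84% of the HH8 libraries, and 5.10%, 3.8% and 3.32% of the HH10 libraries. The share was lower at HH10 within set B (5.86% and 5.10%) and within set C (4.84% and 3.8%), and its part in the results was not tested. The authors left out 1 GFP-positive library of each stage, and the library labelled NC_10 replicate 3 stood nearer to the HH8 group than to its own. WE_10 replicate 3 was sorted from the same pool as that library. With levels centred on the mean of the groups, it correlated across genes at 0.161 with the other WE_10 libraries and at 0.556 with WE_12, its best. WE_10 replicates 2 and 4 correlated at 0.059 and 0.192 with the others of their group. Their best were WE_8 at 0.107 and WE_14 at 0.235, so no kept WE_10 library was nearest to its own group. The results below are given without the left-out libraries, and with them where stated.

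From HH8 to HH10, 78 of 15737 tested genes changed in GFP-positive cells (0.496% of the tested genes, edgeR quasi-likelihood test, Benjamini-Hochberg adjusted p under 0.05). Of these, 52 were higher at HH10 (0.33%) and 26 were lower (0.165%). An unadjusted p under 0.05 was reached by 1435 genes. The median log2 fold change of all tested genes was -0.03, against which the called changes are read. The rises had a median log2 fold change of 2.42 and ran from 0.87 to 6.34. Over 4-fold changes were seen in 36 of the 52 genes that rose and in 11 of the 26 that fell, and over 16-fold changes in 12 and 4 genes. The falls had a median of -1.75.

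**Figure D1:**
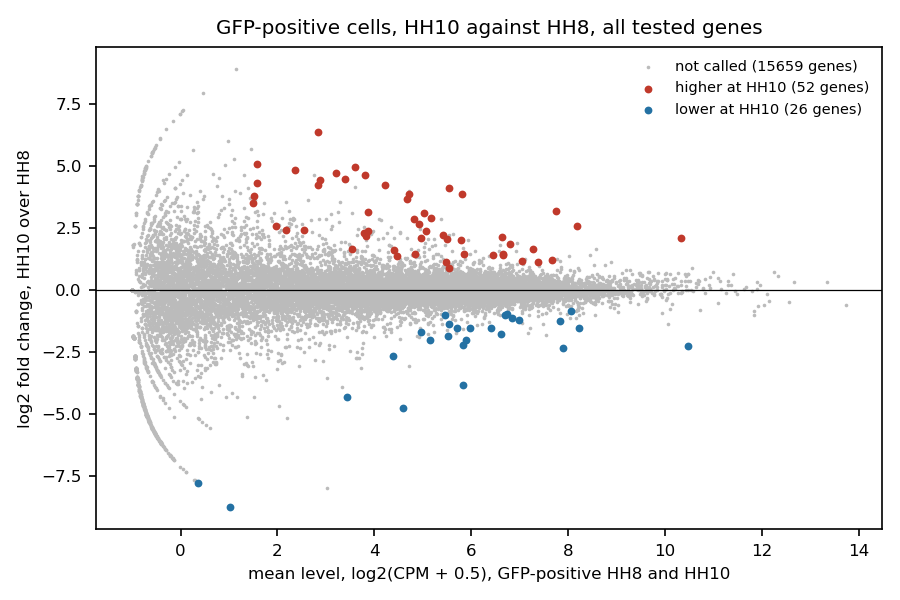
Each point is a gene. The horizontal axis is its mean level in the 6 GFP-positive libraries as log2(CPM + 0.5) and the vertical axis its fitted log2 fold change from HH8 to HH10. The 52 called rises (red) spread over low and high levels, the 26 called falls (blue) lie mostly at higher levels, and many low genes with larger fitted changes were not called.

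The size of this count changed when a library was left out and with the method. It lay between 26 and 64 when each of the 6 libraries was left out in turn. Each of these fits had 1 library fewer in a group and tested 16080 to 16157 genes. The drop can therefore not be ascribed to the removed library alone. Without NC_8 replicate 1 it was 32, without NC_8 replicate 3 it was 28, without NC_10 replicate 2 it was 26 and without NC_10 replicate 4 it was 38. All 78 genes kept their direction in each of these 6 fits. This was nearly fixed in advance, since 51 of the 52 rises and all 26 falls had no overlap between the stages. Leaving out 1 library can hardly reverse such a gene. In all 6 fits 14 of the rises and 3 of the falls were called, and in none of them 2 rises and 4 falls. The limma voom fit called 119 genes, of which 45 rose and 74 fell, so that the larger direction differed from that of edgeR. DESeq2 called 143 rises and 90 falls. With all 50 deposited libraries, edgeR called 2 genes.

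**Figure D2:**
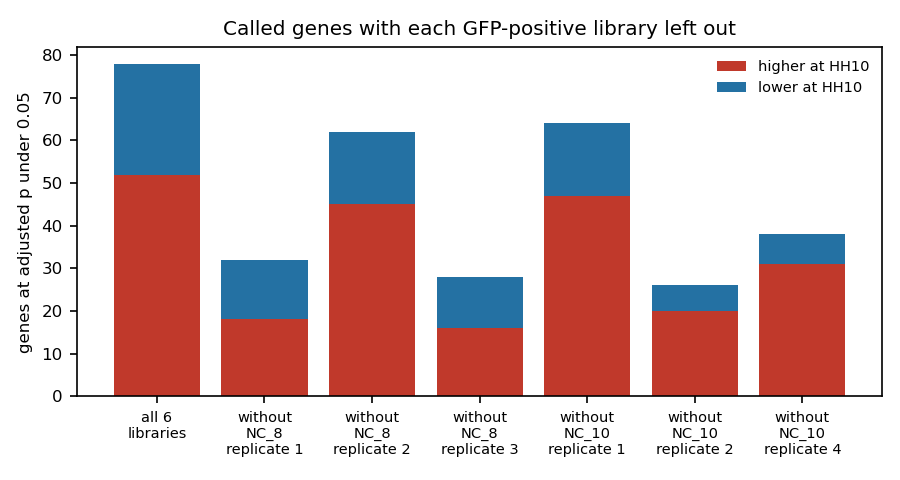
Bars give the number of genes at an adjusted p under 0.05 (edgeR) with all 6 GFP-positive libraries and with each left out, split into genes higher (red) and lower (blue) at HH10. The bars fall from 78 to between 26 and 64.

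The largest rise among genes with at least 10 CPM at HH10 and no overlap between the stages was that of ENSGALG00000010342 (chromosome 1, 39845476 to 39934790, plus strand, GRCg6a), which has 50 merged exons. Its level was 0.136, 0.272 and 0.0559 CPM (the read count relative to the TMM-scaled library size) in HH8 replicates 1, 2 and 3, from 2, 5 and 1 reads. At HH10 it was 9.20, 13.6 and 16.9 CPM in replicates 1, 2 and 4, from 168, 206 and 396 reads. Every kept HH10 library was far above every kept HH8 library, and the log2 fold change was 6.34 ± 1.14 (SE, edgeR adjusted p = 0.00263). Here and below, the SE of a log2 fold change was back-computed from the F statistic of the test and is approximate. The left-out libraries went the other way, with 22.6 CPM in the one labelled NC_8 and 0.664 CPM in the one labelled NC_10. Here and below, levels of left-out libraries were scaled with all 50 libraries, and those of kept libraries with the 42. With all 50 libraries the log2 fold change was 1.01 (edgeR adjusted p = 1). Its mean in GFP-positive cells was also low at HH6 (0.404 ± 0.345 CPM, SD, n = 3), peaked at HH12 (41.9 ± 16.5 CPM, n = 4) and was low again at HH16 (0.603 ± 0.657 CPM, n = 5). In GFP-negative cells it was 0.355 ± 0.351 CPM at HH8 and 2.56 ± 0.401 CPM at HH10 (SD, n = 3 each). The change in GFP-positive cells was larger by 3.55 ± 1.44 on the log2 scale (SE), which did not pass the test over all genes (edgeR adjusted p = 0.678).

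The other rise named by the same rule was ENSGALG00000053185 (chromosome 5, 24953840 to 24962654, minus strand, 8 merged exons). It measured 0.136, 1.58 and 0.391 CPM in the HH8 libraries and 12.6, 25.6 and 29.04 CPM in the HH10 libraries. The stages did not overlap, as the rule required. The left-out libraries went the same way, with 2.48 CPM in the one labelled NC_8 and 7.66 CPM in the one labelled NC_10. HH8 replicate 2 was the highest of its group, and the log2 fold change was 4.96 ± 1.16 (SE, edgeR adjusted p = 0.0334). The call was lost without NC_8 replicate 1 or 3 or without NC_10 replicate 2 or 4, with edgeR adjusted p between 0.101 and 0.285. The level was 28.9 ± 10.6 CPM at HH12 and 13.8 ± 10.9 CPM at HH16 (SD, n = 4 and n = 5). In GFP-negative cells it was 0.620 ± 0.276 CPM at HH8 and 2.46 ± 2.14 CPM at HH10 (SD, n = 3 each), and the difference between the fractions' changes, 2.94 ± 1.51 (SE), did not pass (edgeR adjusted p = 0.678).

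Among the falls, ENSGALG00000005572 (chromosome 14, 6553214 to 6557431, minus strand, 8 merged exons) was at 23.9, 48.2 and 65.1 CPM in the HH8 libraries. It was at 1.59, 1.78 and 1.71 CPM in the HH10 libraries. The HH10 libraries lay close together and all were far below the lowest HH8 library, and the log2 fold change was -4.75 ± 0.87 (SE, edgeR adjusted p = 0.00337). The left-out libraries went the same way, with 95.9 CPM in the one labelled NC_8 and 29.7 CPM in the one labelled NC_10. Both were above every kept HH10 library. The mean of the gene was higher still at HH6 than at HH8, at 243 ± 138 CPM (SD, n = 3). After HH10 (mean 1.69 CPM) it was 4.63 ± 4.52 CPM at HH12 (n = 4) and 3.87 ± 1.54 CPM at HH14 (n = 3). It stood at 0.179 ± 0.153 CPM at HH16 (n = 5). GFP-negative means differed in the same direction, at 14.0 ± 7.19 CPM at HH8 and 1.39 ± 1.45 CPM at HH10 (SD, n = 3 each). The difference between the changes of the fractions was -1.55 ± 1.10 (SE, edgeR adjusted p = 0.716). It was -0.60 without WE_10 replicate 3 and -0.44 by voom.

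ENSGALG00000034567 (chromosome 4, 11085059 to 11086604, plus strand, 2 merged exons) was at 15.9, 22.8 and 20.1 CPM at HH8 and at 0.876, 1.06 and 1.02 CPM at HH10. No kept library overlapped with the other stage, as the rule for named genes required. The left-out libraries went the other way, with 4.955 CPM in the one labelled NC_8 and 30.1 CPM in the one labelled NC_10. The log2 fold change was -4.30 ± 0.88 (SE, edgeR adjusted p = 0.0104). The call was lost without any 1 of the HH10 libraries, with edgeR adjusted p between 0.0699 and 0.0937 and log2 fold changes between -4.35 and -4.23. At HH8 the gene was at 2.17 ± 0.210 CPM in GFP-negative cells, below every GFP-positive library. At HH10 the GFP-negative libraries held 3.50, 0.483 and 0 CPM, on both sides of the GFP-positive ones. With all 50 libraries the log2 fold change between the stages was -0.99 (edgeR adjusted p = 0.983). The difference of the changes was -3.48 ± 1.16 (SE, edgeR adjusted p = 0.678), -1.20 without WE_10 replicate 2 and -1.53 by voom.

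**Figure D3:**
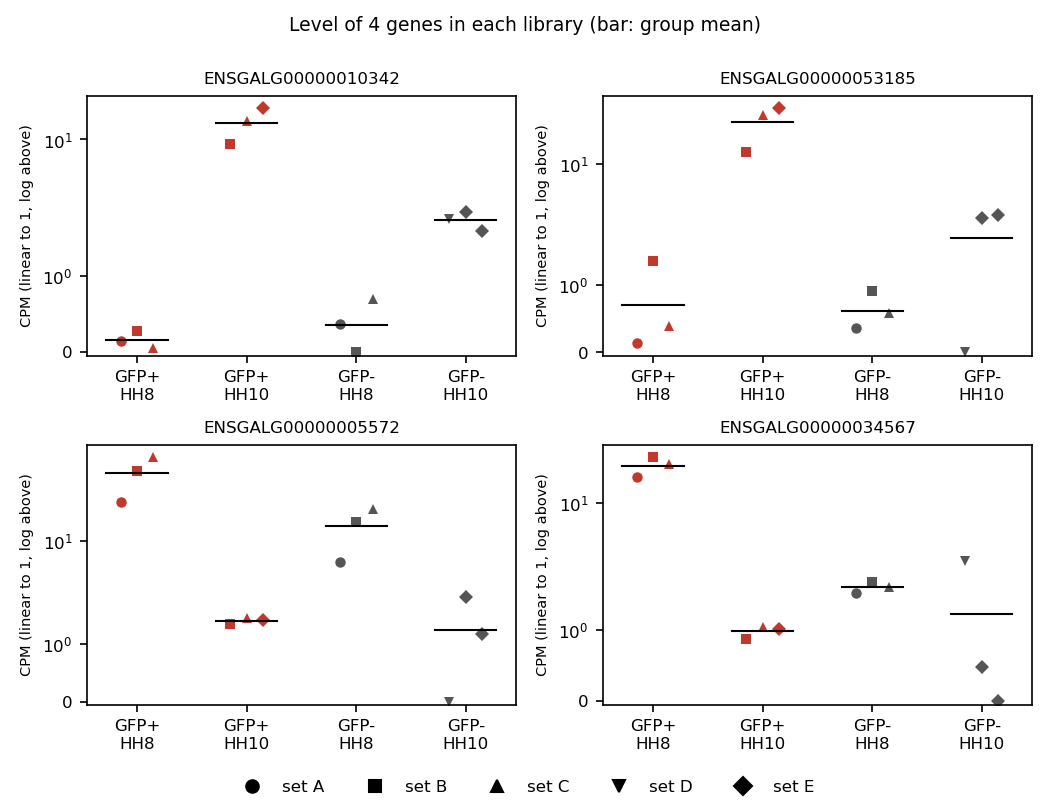
Each symbol is a library, with GFP-positive libraries in red, GFP-negative in grey and the shape giving the sequencing set. Bars are group means (n = 3), and the vertical axis is CPM, linear up to 1 and logarithmic above. The 3 HH10 libraries of GFP-positive cells lie above (upper panels) or below (lower panels) all 3 HH8 libraries for each gene. The rule that named these genes required this.

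The smallest adjusted p belonged to a rise on chromosome Z (58579552 to 58587854, minus strand, 4 merged exons). This gene measured 1.64, 2.82 and 1.12 CPM at HH8 and 26.1, 42.8 and 34.8 CPM at HH10. Its log2 fold change was 4.21 ± 0.50 (SE, edgeR adjusted p = 5.71e-06), and it was called in all 6 fits that left out a library. Its later means in GFP-positive cells were higher, at 44.9 CPM at HH12, 86.0 CPM at HH14 and 134.7 CPM at HH16. GFP-negative means were 7.53 ± 1.88 CPM at HH8 and 23.6 ± 3.71 CPM at HH10 (SD, n = 3 each).

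The most abundant gene that rose, both in CPM and per kilobase of exon, lies on chromosome 33 (7292614 to 7310596, plus strand) and has 53 merged exons. It held 431, 603 and 429.6 CPM at HH8, and 1722, 2582 and 1936 CPM at HH10. All HH10 libraries were above all HH8 libraries, the log2 fold change was 2.09 ± 0.34 (SE, edgeR adjusted p = 0.000748), and the gene was called in all 6 fits. Per kilobase its mean level went from 114 to 488 CPM. In GFP-negative cells the mean was 602 ± 32.5 CPM at HH8 and 1200 ± 352 CPM at HH10 (SD, n = 3 each). A rise from a lower level was that of a gene on chromosome 20 (4690689 to 4693338, minus strand), the one called rise with a single exon. It stood at 2.87, 13.3 and 5.25 CPM at HH8 and at 142, 77.8 and 91.6 CPM at HH10, and the log2 fold change was 3.86 ± 0.69 (SE, edgeR adjusted p = 0.0028).

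Called rises that were next to each other in the order of tested genes occurred on chromosomes 5 and Z. A further called rise on chromosome Z (58591903 to 58606998, plus strand, log2 fold change 5.09) lies near the rise with the smallest adjusted p. These 2 genes were not next to each other in that order. On chromosome 5, the named gene ENSGALG00000053185 has a called gene on each side, and all 3 lie on the minus strand between 24938602 and 24987701 with gaps of 1.31 and 8.06 kb. Their HH8 means were 0.588 to 3.25 CPM and their HH10 means 13.04 to 48.2 CPM. The neighbour that begins at 24938602, with 12 merged exons, gave 1.84, 5.05 and 2.85 CPM at HH8 and 29.9, 51.1 and 63.5 CPM at HH10. The neighbour that begins at 24970713, with 8 merged exons, gave 0.0682, 1.30 and 0.391 CPM at HH8 and 8.38, 12.1 and 18.7 CPM at HH10. All 3 were highest in HH8 replicate 2 and in HH10 replicate 4 of their stages, and their log2 fold changes ran from 3.88 to 4.96. The gene that begins at 24938602 was called in all 6 fits that left out a library, and each of the other 2 in 2 of them. On chromosome Z, 2 plus-strand genes with 3 merged exons each, between 24754667 and 24760422, rose by 4.21 ± 1.01 and 4.84 ± 1.02 (log2, SE, edgeR adjusted p = 0.0386 and 0.0141). The first was called in 0 and the other in 3 of the 6 fits that left out a library. Their GFP-negative means were already 14.9 and 5.44 CPM at HH8, against 0.664 and 0.301 CPM in GFP-positive cells. Whether these neighbours share sequence was not examined, and the levels of near-identical genes would be uncertain.

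The most abundant gene that fell lies on chromosome 9 (14097822 to 14108342, plus strand, 4 merged exons). It held 2624, 1786 and 2620 CPM at HH8 and 465, 435 and 566 CPM at HH10. The kept libraries of the stages were well apart, and the log2 fold change was -2.26 ± 0.51 (SE, edgeR adjusted p = 0.0228). The left-out libraries went the other way, with 636 CPM in the one labelled NC_8 and 2174 CPM in the one labelled NC_10. The gene was called in 1 of the 6 fits that left out a library. Its mean had been 3007 CPM at HH6 and was lower after HH10, at 319 CPM at HH12 and 59.2 CPM at HH16. In GFP-negative cells it was at 848 ± 344 CPM at HH8 and 546 ± 29.1 CPM at HH10 (SD, n = 3 each). The fall with the smallest adjusted p was that of a gene on chromosome Z (16804844 to 16861020, minus strand, 7 merged exons). It went from 93.4, 82.4 and 106 CPM at HH8 to 23.2, 20.5 and 26.7 CPM at HH10. The log2 fold change was -2.0 ± 0.33 (edgeR adjusted p = 0.001), and the gene was called in all 6 fits.

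Among the genes that fell, 2 had no read in any HH10 library. A gene on chromosome 20 (5042743 to 5050245, minus strand) had 1.71, 1.58 and 1.45 CPM in the HH8 libraries, close to one another. With a floor of 3 reads over the 3 HH10 libraries, or 0.0527 CPM, it was at least 30-fold lower at HH10 (edgeR adjusted p = 0.0301), and was called in 0 of the 6 fits that left out a library. A gene on chromosome 15 (8525645 to 8536564, plus strand) had 0.0682, 5.87 and 3.24 CPM at HH8, where replicate 1 was near the floor. Its HH8 mean was at least 58.0-fold above the HH10 floor (edgeR adjusted p = 0.0291, called in 1 of the 6 fits), and its mean at HH6 was 44.9 CPM. Floors cover counting error only. The other 24 falls had log2 fold changes from -4.75 to -0.84, and the median of all 26 was -1.75 with these genes at their bounds too. The smallest of them was in 1 of 2 called neighbours on the minus strand of chromosome 4, between 83408777 and 83903849, which fell by 1.24 and 0.84 on the log2 scale and were each called in 1 of the 6 fits.

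Of the genes that rose, 51 of 52 had no overlap between the stages, against 9.14% of all tested genes with every HH10 library above every HH8 library. All 26 that fell had none, against 12.6% of all tested genes in that direction. These shares describe genes chosen by the same values. The exception, on chromosome 1 (104340407 to 104345964), measured 10.5, 15.4 and 6.42 CPM at HH8 and 13.5, 97.5 and 55.8 CPM at HH10. Its lowest HH10 value was that of replicate 1, which was the lowest HH10 library for 39 of the 52 rises. NC_10 replicate 2 was the highest for 32 of them. NC_8 replicate 2 was the highest HH8 library for 40 of the 52, and NC_8 replicate 3 the lowest for 36. Among the falls, each of the 6 libraries was the lowest of its stage for 7 to 11 of the 26.

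Stages could be compared within sequencing sets B and C, each with 1 library a stage and no test. In set B (NC_8 replicate 2 and NC_10 replicate 1), 77 of the 78 genes differed in the called direction, with a median log2 difference of 1.56 for the rises and -1.81 for the falls on the log2(CPM + 0.5) scale. In set C (NC_8 replicate 3 and NC_10 replicate 2), all 78 did, with medians of 2.75 and -1.85. The medians of all tested genes were 0 and -0.058. These libraries had also entered the calls. A gene without overlap between the stages differs in the called direction in any such pair. The counts of 77 and 78 were thus nearly fixed in advance and cannot show whether sets affect the levels.

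The same genes were followed through the other stages, whose libraries entered neither side of the contrast. For the 52 rises, the median of the group means was 6.40 CPM at HH6, 6.93 at HH8, 48.4 at HH10, 66.5 at HH12, 47.5 at HH14 and 41.5 at HH16. For the 26 falls it was 121.9, 93.5, 27.7, 25.4, 23.3 and 27.4 CPM. All 78 genes had an HH6 mean on the HH8 side of the midpoint between HH8 and HH10 (log2 scale), and all 78 had HH12 and HH14 means on the HH10 side. Of 1206 tested genes that were not called although their means differed over 2-fold, 86.1% lay on the HH8 side at HH6, 79.6% on the HH10 side at HH12 and 79.9% at HH14. At HH16, 69 of the 78 (88.5%) were on the HH10 side, against 68.7% of the same 1206 genes. Those genes were not matched to the called ones in size of change, scatter or level. The gap between the shares therefore cannot be read as a trait of the called genes.

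Means beyond HH10 were often higher still for the genes that rose. The HH12 mean was above the HH10 mean for 45 of the 52, and 30 of them reached their highest mean at HH12, 15 at HH16, 4 at HH14 and 3 at HH10. A gene on chromosome 1 (44050178 to 44202174, minus strand) had the largest ratio of its HH16 to its HH10 mean, with means of 0.311 CPM at HH8, 4.40 at HH10, 13.1 at HH12, 22.04 at HH14 and 181.5 at HH16. Among the falls, 19 of 26 were lower still at HH12. Their highest mean was at HH6 for 14 genes, at HH8 for 11 and at HH16 for 1. These counts use group means with no test of each step. They were not set beside the share of all tested genes, and cannot be read as a trait of the called genes.

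**Figure D4:**
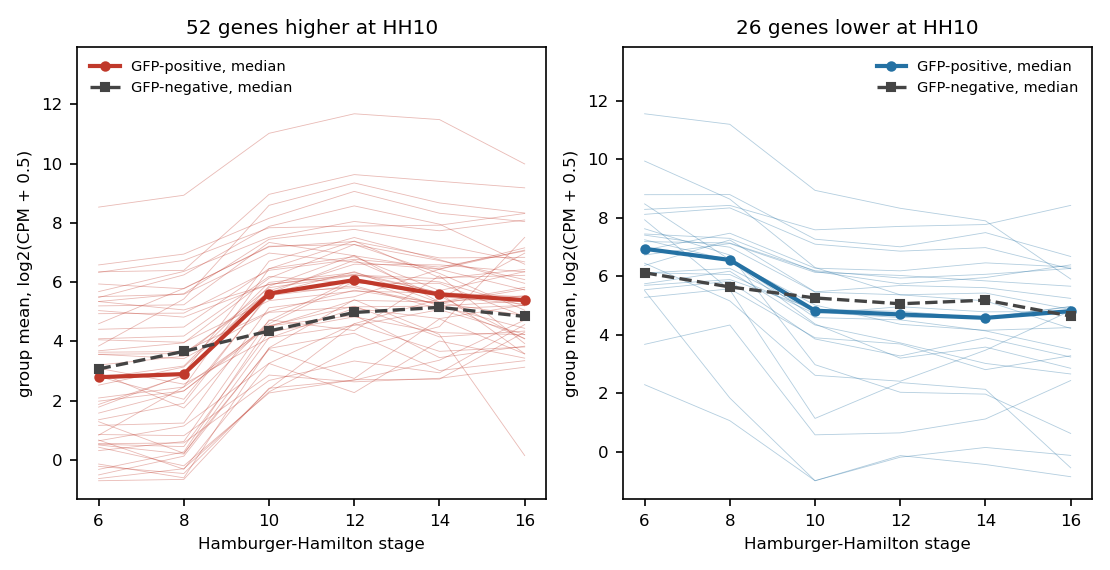
Thin lines are the group means of single called genes in GFP-positive cells as log2(CPM + 0.5) against stage, with their median as a thick line and the median of the same genes in GFP-negative cells dashed. The red lines step up and the blue lines step down between HH8 and HH10, and both medians change less between the other stages.

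The comparison with GFP-negative cells asks whether these changes were shared with the rest of the head. By group means, 47 of the 52 rises and 23 of the 26 falls went the same way in GFP-negative cells, with a median log2 difference of 0.81 and -0.56 there, against 2.23 and -1.73 in GFP-positive cells on the same scale. The difference was over 2-fold in GFP-negative cells for 23 rises and 9 falls. It was smaller than in GFP-positive cells for 49 rises and 24 falls, which is a description since the genes were chosen for their change in GFP-positive cells. Without WE_10 replicate 3, 47 rises and 22 falls went the same way, with medians of 1.0 and -0.70. None of these counts was set beside the share of all tested genes, so they cannot be read as a trait of the called genes. No gene passed the test of the difference between the fractions' changes (0 of 15737, or 0% by edgeR). An unadjusted p under 0.05 was reached by 1134 genes, the smallest adjusted p was 0.11, and DESeq2 called 17 genes. The edgeR test treated libraries sorted from the same pool as independent. With the pools shared by the fractions as a random block, limma voom called 11 genes, and without that block 0. Without WE_10 replicate 3 edgeR called 2. Among the called genes, 30 rises and 14 falls had an unadjusted p under 0.05 in this test. The change in GFP-positive cells, by which these genes were chosen, is part of the tested difference. These 2 counts are therefore no independent support for a difference between the fractions. WE_10 replicate 2 was the shallowest of the 12 libraries, with 7448624 reads, which limits this comparison.

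**Figure D5:**
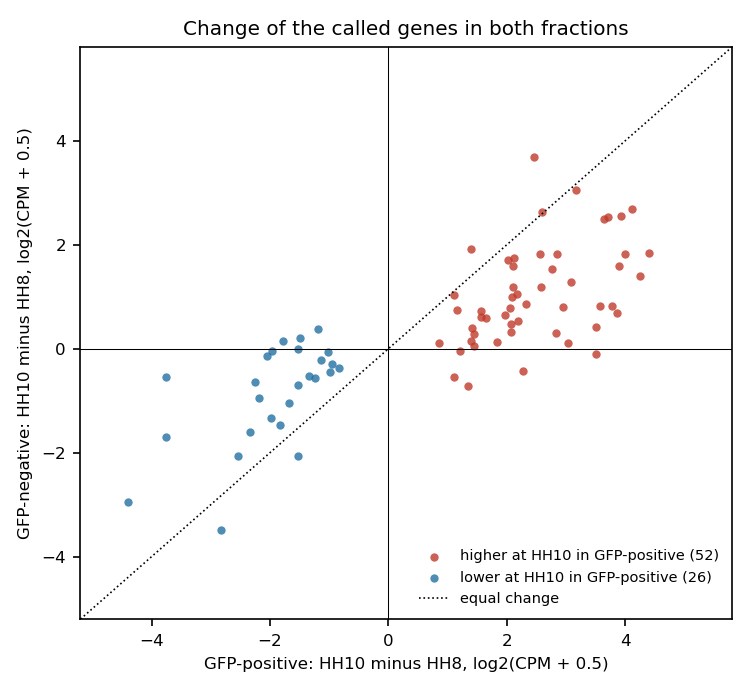
Each point is 1 of the 78 called genes, with its HH10 minus HH8 difference of group means on the log2(CPM + 0.5) scale in GFP-positive cells (horizontal) and GFP-negative cells (vertical). Most points lie between the horizontal zero line and the dotted line of equal change, with 49 of 52 rises and 24 of 26 falls changing less in GFP-negative cells.

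The order of the fractions also differed between the stages. At HH8, 22 of the 52 genes that rose were lower in all 3 GFP-positive libraries than in all 3 GFP-negative ones, against 12.6% of all tested genes, and 4 were higher, against 11.8%. At HH10, 25 were higher in all GFP-positive libraries, against 7.51% of all tested genes, and 4 were lower, against 8.45%. In all, 4 genes did both, that is, lay wholly below at HH8 and wholly above at HH10, against 44 of all 15737 tested genes. Of the 26 genes that fell, 18 were higher in all GFP-positive libraries at HH8, against 11.8% of all tested genes. At HH10 3 were, against 7.51%, so few that this is near the share of all genes. Lower in all GFP-positive libraries were 0 of the 26 at HH8, against 12.6%, and 4 at HH10, against 8.45%. The same GFP-positive values chose the genes, so these counts are no independent support for a difference between the fractions.

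In 3 of the 78 genes the fractions moved in opposite directions with no overlap between the stages in either, or 3.85%. Among all tested genes, 98 did so (0.623%). These shares cannot show an excess, because the called genes were chosen for their change in GFP-positive cells. In that fraction 51 of the called rises and 26 of the called falls had no overlap between the stages. Among all 15737 tested genes, 1438 lay higher and 1975 lower at HH10 without overlap in GFP-positive cells. The 3 genes were picked out after their values were seen. A gene on chromosome 1 (114074141 to 114163628) gave 11.7, 14.1 and 10.4 CPM at HH8 and 31.3, 32.3 and 30.9 CPM at HH10 in GFP-positive cells, but 27.9, 29.8 and 32.1 CPM and then 16.6, 25.8 and 11.4 CPM in GFP-negative cells. A gene on chromosome 8 (8212688 to 8298953) rose in GFP-positive cells with a log2 fold change of 1.12 and was lower at HH10 in GFP-negative cells by means, with a log2 difference of -0.54. A gene on chromosome 18 (9012993 to 9054883) fell in GFP-positive cells with a log2 fold change of -1.20, while its GFP-negative mean was 0.37 higher on the log2 scale. The differences between the changes of the fractions were 2.12, 1.67 and -1.58 (log2), with edgeR adjusted p of 0.11, 0.139 and 0.228, so that none passed. The changes in GFP-positive cells of these genes were called in 2, 3 and 2 of the 6 fits that left out a library.

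The called genes were spread over the genome. Chromosome 1 held 13 of the rises and 1 of the falls among 1989 tested genes, and chromosome Z held 7 rises and 1 fall among 703, or 1.14% of its tested genes against 0.496% of all. Chromosome 24 had the same share, from 2 falls among 175 genes. The median log2 fold change of chromosome Z was -0.12. The genes that rose had a median of 10 merged exons and a median span of 27.2 kb, those that fell 8 exons and 11.8 kb, and all tested genes 8 exons and 12.4 kb. Of the 26 mitochondrial genes tested, edgeR called 0, with a smallest adjusted p of 0.189 and a median log2 fold change of -0.40, and 20 of them were below 0. These groups were formed after the data were seen, and no set test was made.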

How the data were processed

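The deposited values are read counts per gene from featureCounts 1.6.2 on GRCg6a with the Ensembl release 99 annotation, per the file headers. Reads had been trimmed with cutadapt 2.10 and aligned with HISAT2 2.1.0, per the submitters' processing notes. The authors' filtered table keeps 42 of 50 libraries, leaving out those of low quality per the series' design text. The other deposited column used was exon length per gene, for values per kilobase. Each title names a pool of heads, and nothing more is given on how separate the embryo batches of a stage were. P-values therefore reflect only how far libraries scatter within their groups, which may be partly technical. This scatter was estimated over all 42 libraries of the fit, and not from the compared ones alone. No HH8 or HH10 pair agreed within sampling noise (lowest chi-square per degree of freedom 33.3). Replicate numbers follow accession order and do not pair the stages. Pool names in the titles pair the fractions within a stage. Deviations from the group means correlated at 0.173 to 0.292 in the 3 pools of HH8, and at 0.007 and 0.092 in the 2 of HH10.

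Genes were filtered with filterByExpr by group (8619 removed, 15737 tested), scaled by TMM, and passed to the quasi-likelihood test in edgeR 4.0.16 in R 4.3.3, with 12 groups in one fit and Benjamini-Hochberg adjustment. Levels are CPM on TMM-scaled library sizes. Each SE is the absolute log2 change divided by the square root of the F statistic, since the test gives none itself. Alternatives used DESeq2 1.42.0, limma 3.58.1, other filters and scaling, other sets of libraries and blocks.

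The comparison, gene lists and tests were chosen with earlier results of these data known. The rule for named genes took the largest rises and falls past the threshold with at least 10 CPM in the higher stage and no overlap. It was met by 43 rises and 24 falls, and 2 of each were named because the rule's condition on gene symbols could not be applied. The reference gene table is on another assembly, and 0 of its 25635 rows hold an Ensembl identifier, so that the lists and cell type markers could not be tested. Groupings by position, exons and stage pattern, and the members given by position, were chosen after the data were seen.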

Additional observations from a re-analysis of the deposited data

Results flagged for a closer look

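The left-out library labelled NC_10 replicate 3, which entered only the fit with all 50 libraries, is given for a signal outside the main measurement. With levels centred on the mean of the groups, it correlated across genes at 0.752 with the NC_8 mean and at 0.459 with the NC_6 mean, its next best. It correlated at 0.274 with the NC_10 mean. Each kept HH8 library correlated at 0.589 to 0.673 with the mean of the others of its group, and each kept HH10 library at 0.224 to 0.241. Kept HH10 replicates 1 and 4 were nearest to NC_12, at 0.267 and 0.338. For 46 of the 52 rises and all 26 falls, the level in this library was nearer to the HH8 mean than to the HH10 mean. It held 18529761 reads. The library labelled NC_8 replicate 4, also left out, held 3238290 reads and correlated best with WE_12, at 0.164. The left-out library labelled WE_8 replicate 4 correlated best with NC_12, at 0.577. WE_10 replicate 3, kept by the authors and used for the GFP-negative values, comes from the same pool as NC_10 replicate 3. By uncentred levels WE_10 replicate 3 correlated at 0.967, 0.901 and 0.946 with WE_8 replicates 1, 2 and 3. It correlated at 0.890 and 0.952 with WE_10 replicates 2 and 4. By centred levels it correlated at 0.082 with the WE_8 mean. The cause was not tested.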

How the results depend on the processing

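All 78 called genes were counted as keeping their direction under every alternative except 3. These were the fit of the compared groups alone (77), that with all 50 libraries (76) and the pair in sequencing set B (77). In the fits, a called gene that the filter removed was counted as not keeping its direction. The compared groups alone tested 13617 genes, so the 77 there need not mean a reversed gene. Kept directions are a weak check, since most alternatives reuse the libraries that chose the genes. Among these, 51 rises and 26 falls had no overlap between the stages. Between the 2 left-out GFP-positive libraries alone, 29 of the 52 rises and 5 of the 26 falls differed in the called direction, with no test. DESeq2's size-factor scaling in edgeR gave 79 calls, no filter 66 and a filter of 1 CPM 82. DESeq2 gave 233 calls, voom 119, the compared groups alone 294 and all 50 libraries 2. The 2 stages share no pool, and replicate numbers do not pair them. Deviations of the HH8 and HH10 library of a sequencing set correlated at -0.071 in set B and -0.162 in set C. With 1 pair a set, and deviations from means that include the library itself, these values cannot decide whether sets affect the levels. With the sequencing set as a replicate block there were 205 calls, 76 of them among the 78, and with the pool as a random block in voom 97. Leaving out 1 library gave 26 to 64 calls. Of the alternatives chosen after seeing the data, 48 libraries without the left-out NC_8 and NC_10 libraries gave 4 calls, and leaving out the 3 libraries with the fewest detected genes 179. For the difference between the fractions' changes, edgeR called 0, DESeq2 17, voom 0 and voom with the pool block 11. The fit of 48 libraries called 1, the fit without the 3 libraries 2, and leaving out 1 library 0 to 2. The difference of the changes of ENSGALG00000034567 reversed with all 50 libraries (log2 0.34, adjusted p = 1). With all 50 libraries none of the 4 named genes was called, at log2 fold changes of 1.01, 4.19, -2.74 and -0.99. With 48 these were 6.34, 4.96, -4.76 and -4.31, at adjusted p of 0.127 to 0.492. The pool block took ENSGALG00000053185 to an adjusted p of 0.07 and ENSGALG00000005572 to 0.0523. The causes were not tested. Called genes under a few CPM rest on few reads, and 4 called changes were under 2-fold.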
